A study of Mus musculus with 9 samples.

Results

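The genes described here are the keratins, the small proline-rich proteins and the other building blocks of the cornified envelope in mouse colon, together with the desmosomal cadherins and Trp63. They were chosen by name: every gene whose symbol is Krt followed by digits, every Sprr gene, and Lor, Ivl, Flg, Casp14, Csta1, Krtdap, Sbsn, Dsg1a, Dsg2, Dsg3, Dsc1, Dsc2, Dsc3 and Trp63. That gave 76 of the 33539 genes in the table, 73 of them annotated as protein coding. The study sequenced poly(A) RNA from colons of wild type male C57BL/6 mice, 3 mice in each of 3 groups, all collected 84 h after irradiation. The IR+CF-2 mice received 13 Gy and CF-2, a compound known from the labels by that code name, at 7.5 mg/kg into the peritoneum in 4 doses, 1 h before and 24, 48 and 72 h after irradiation. The IR mice received the same 13 Gy without CF-2. The Con mice were not irradiated and received saline according to the design text or PBS according to the sample labels. The labels also differ on the age, 8 or 6 weeks, and on whether the abdomen or the whole body was irradiated. The series title places the work around agonism of the CB2 receptor and the β-catenin and HoxA10 proteins. No group received CF-2 without irradiation, so every value of CF-2 is set against irradiated or untreated colon.

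Keratins are the intermediate filaments of epithelia and assemble as pairs of a type I and a type II protein. Simple epithelia such as the lining of the colon carry Krt8 with Krt18, Krt19 and Krt20, whereas stratified squamous epithelia carry Krt5 with Krt14 or Krt15 in the basal layer and other pairs above it. In the outer layers of skin, transglutaminases cross-link loricrin, involucrin and small proline-rich proteins into the cornified envelope, and desmosomes built from Dsg and Dsc cadherins hold the cells together. Several of these genes lie side by side, most type I keratins on chromosome 11, the type II keratins on chromosome 15 and the envelope precursors on chromosome 3. The type I keratin Krt18 lies apart from its type, on chromosome 15.

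Library totals ran from 34.4 to 44.3 M counts, and the 76 genes together took 0.985 to 1.30% of them. A total of 3 counts, taken as the floor of detection, equals 0.0677 to 0.0871 CPM (counts per M counts of the library). Limits of this kind cover counting error only and take counts as independent. Between 71.6 and 74.6% of counts from 1 to 20 were even, so such intervals may be too narrow and such bounds too high. The tissue label was checked with 8 markers of simple columnar epithelium. All 8 were detected in every library, with summed levels of 7314 to 7931 CPM in IR+CF-2, 7963 to 8984 CPM in IR and 9377 to 9872 CPM in Con. Among 12 other markers of stratified squamous epithelium, Rhcg, Calml3 and Lypd3 reached at most 0.0549, 0.106 and 0.290 CPM, while Serpinb5, Pkp1 and Ly6d reached 98.1, 60.5 and 51.0 CPM. Of the 9 in that list that were tested, 5 were called higher and 0 lower in IR+CF-2 against Con, beside 11.2% and 7.95% of all genes. They were Ly6d, Col17a1, Pkp1, Crnn and Tgm1, and the last 3 return in the pathway lists below. Ly6d had 2.24 CPM in IR+CF-2 2, within the range of Con. In IR against Con and in IR+CF-2 against IR 0 were called. There, 2 and 3 were higher at an unadjusted p under 0.05, beside 15.7% and 6.48% of all genes. Library IR+CF-2 2 stood apart: it held 162 CPM of Hoxd13, 297 CPM of Hoxb13 and 2124 CPM of Tgm3, against at most 0.290, 8.82 and 12.5 CPM in the other 8 libraries. Hoxa13, a marker of distal position along the gut, had 59.5, 78.8 and 59.6 CPM in IR+CF-2, 2.82, 1.68 and 0.771 CPM in IR, and 44.0, 0.966 and 7.96 CPM in Con. Position along the colon is not given in the labels.

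Of the 76 genes, 35 reached 1 CPM in at least 1 library, 17 reached 10 CPM, 19 never exceeded the floor and 4 (Krt24, Krt33a, Krt40 and Krt82) had no count anywhere. Per length, the order of the simple keratins in Con was Krt8 at 2482 ± 164 FPKM (fragments per kilobase of transcript and M fragments), Krt19 at 1599.5 ± 122, Krt20 at 847 ± 76.6, Krt18 at 226 ± 19.8, Krt7 at 19.4 ± 3.62 and Krt23 at 4.15 ± 0.92 FPKM (SD, n = 3), with no overlap between neighbours in that order. These 6 genes took 98.9 to 99.8% of all keratin counts in every library. Outside them, Sprr2a3, Dsc2, Dsg2 and Sprr2a1 were the most abundant per length in Con, at 85.4 ± 29.2, 73.3 ± 3.62, 69.0 ± 4.98 and 45.3 ± 4.68 FPKM, and of these 4 the first 3 overlapped. The squamous and hair keratins sat far lower, with Krt84 at 1.62 ± 0.96 FPKM and Krt36 at 0.0502 ± 0.0192 FPKM in Con.

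A filter on low counts passed 40 of the 76 genes, and the other 36 were not tested. Because a gene that is high in a single group passes that filter, counts among the 40 are a description. In IR against Con, edgeR's quasi-likelihood test with Benjamini-Hochberg adjustment over all 19174 genes tested called 5 of the 40 higher and 0 lower, beside 3.21% of all genes called, 2.37% higher and 0.845% lower. At an unadjusted p under 0.05 the counts were 19 higher and 1 lower, beside 15.7% and 8.2% of all genes. DESeq2 called 11 of the 76 higher and 1 lower, beside 6.85% and 4.15%, and limma-voom 1 and 0, beside 0.6% and 0.37%. DESeq2 was run without that filter on all 33539 genes, and its shares here and below divide its calls by 19174. The groups did not overlap for 21 genes that were higher and 1 that was lower in IR, beside 22.4% and 14.2% of all genes. In IR+CF-2 against IR, 0 were called higher and 1 lower, beside 0.302% of all genes, 0.0574% higher and 0.245% lower. The unadjusted counts were 7 and 5, beside 6.48% and 8.08% of all genes. DESeq2 gave 5 and 4, beside 2.36% and 2.56%, and limma-voom 0 and 1, beside 0.0678% and 0.256%. The groups did not overlap for 7 higher and 5 lower, beside 9.76% and 7.01% of all genes. In IR+CF-2 against Con, 15 were called higher and 1 lower, beside 19.2% of all genes, 11.2% higher and 7.95% lower. Without overlap were 17 higher and 2 lower, beside 26.3% and 14.9% of all genes, 41.2% in either direction. The median log2 fold change of the 40 genes was 1.18, 0.09 and 0.99 in these 3 comparisons, against 0.01, 0.02 and 0.02 over all genes. Any 2 of the 3 comparisons share a group of libraries.

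Single libraries decided many of these calls, and many of those over all genes. In IR against Con, leaving out IR 2, IR 3, Con 2, Con 3 or Con 4 left 0 of the 76 genes called by edgeR. Leaving out IR+CF-2 3 left 2, and leaving out IR+CF-2 2, which enters through the shared spread, gave 14. In the same order, all genes called numbered 1, 1, 1, 14, 2, 86 and 3085, against 616 with every library. For IR+CF-2 against Con the count of 16 became 6 without Con 2, 8 without Con 3, 6 without Con 4 and 10 without IR+CF-2 3. All genes called went from 3677 to 1050, 1051, 685 and 1402 in these fits. Krt36, Krt13, Krt15, Krt87, Krt222 and Csta1 passed in IR+CF-2 against Con whichever library was left out. Krt90 was lost without Con 2 or Con 4, Krt4, Lor and Sprr2b without any 1 of the Con libraries, and Krt7, Krt18, Krt16, Krt6a, Sprr2h and Casp14 also without IR+CF-2 1 or IR+CF-2 3. With the log2 level of Hoxa13 as a term in the model, 1 of the 76 genes, Krt36, was called in IR against Con. In IR+CF-2 against IR and in IR+CF-2 against Con 0 were called. Over all genes the same term took the calls from 616 to 45, from 58 to 0 and from 3677 to 6. Hoxa13 was itself higher in IR+CF-2 than in IR and Con without overlap, so the term cannot separate position from group. Under that term some log2 fold changes in IR+CF-2 against Con became smaller and others larger. Krt36 went from 7.73 to 6.66, Krt15 from 2.81 to 2.17 and Csta1 from 4.72 to 3.95. Lor went from 4.10 to 3.17 and Krt16 from 4.49 to 2.15. Krt13 went from 5.62 to 6.12 and Krt90 from 2.59 to 3.14. In IR+CF-2 against IR, Krt36 went from 2.00 to 0.02.

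**Figure D1:**
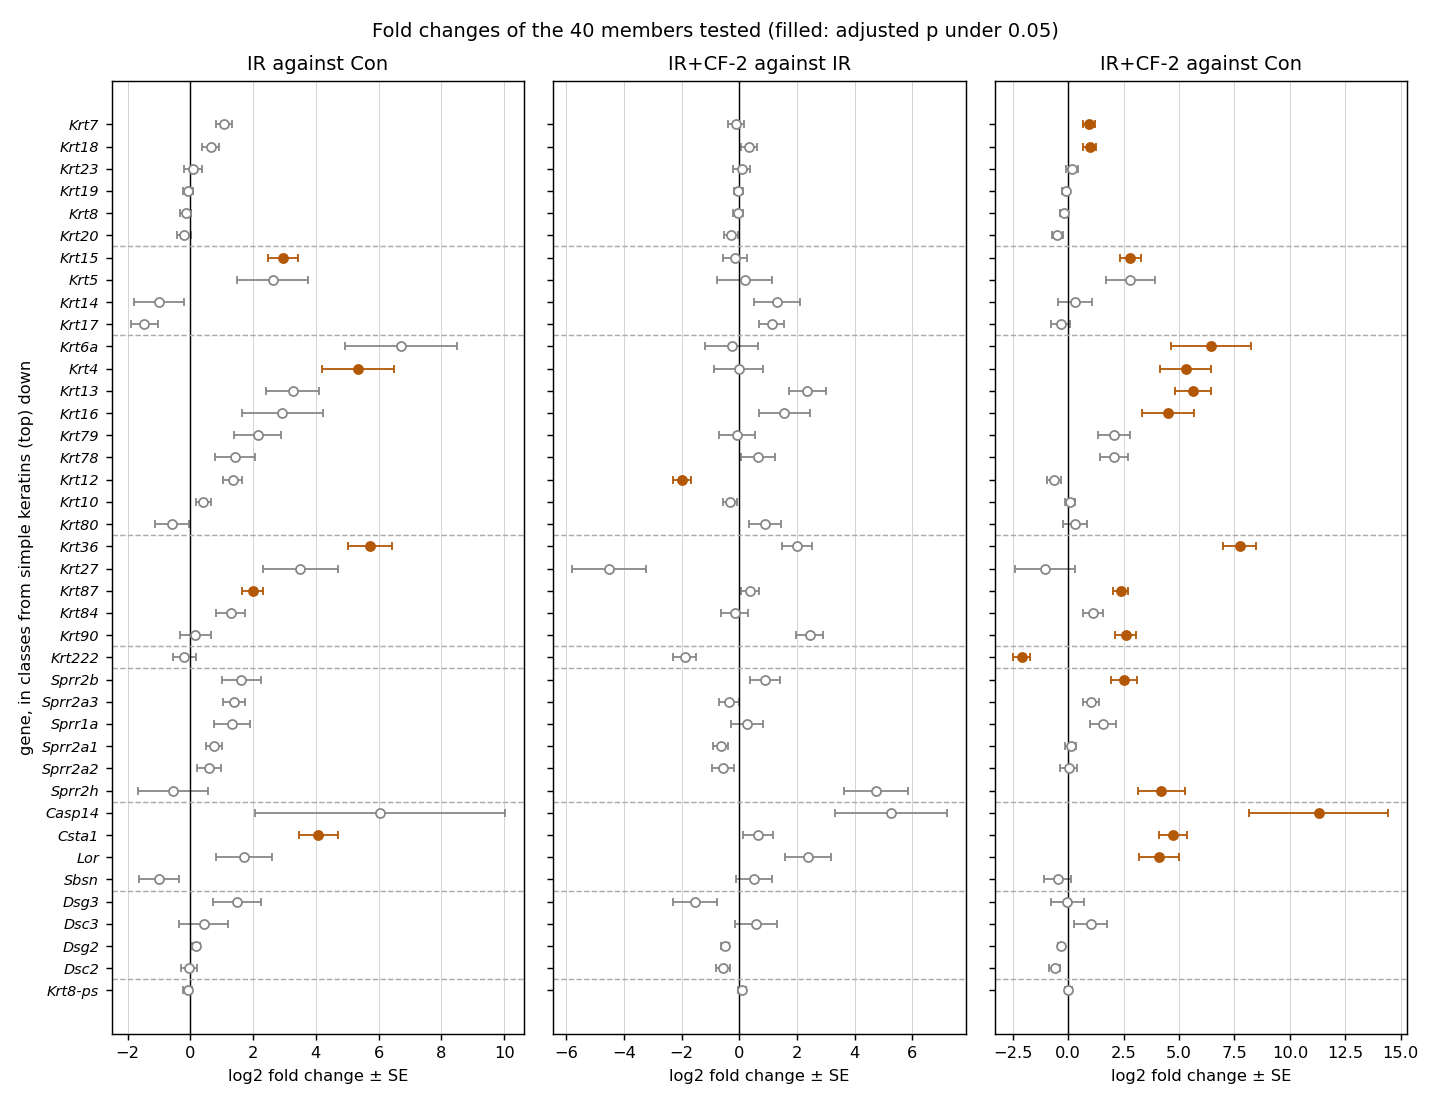
Log2 fold change with its standard error for the 40 genes tested, in IR against Con, IR+CF-2 against IR and IR+CF-2 against Con, with filled points for an adjusted p under 0.05 and dashed lines between classes. The panels hold 5, 1 and 16 filled points; Casp14 and Krt6a had no count in Con, so their fitted values against Con are not to be read as sizes.

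Among the simple keratins, Krt7 and Krt18 rose in IR+CF-2 against Con, and the abundant Krt8, Krt19 and Krt20 passed no test. Krt7, a type II keratin of ductal and glandular epithelia, had 337, 184 and 341 CPM in IR+CF-2, 306, 337 and 233 CPM in IR, and 109, 159.5 and 142 CPM in Con. Every irradiated library lay above every Con library. The log2 fold change was 0.96 ± 0.27 (SE, n = 3 a group) in IR+CF-2 against Con, with an adjusted p of 0.0376, and 1.07 ± 0.27 in IR against Con, with an adjusted p of 0.0614.

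Krt18, the type I partner of Krt8, had 866, 389 and 792 CPM in IR+CF-2, 542, 598 and 394 CPM in IR, and 354, 321 and 298 CPM in Con. Again no irradiated library overlapped Con, and library IR+CF-2 2 was the lowest of its group for both genes. The log2 fold change was 0.97 ± 0.28 in IR+CF-2 against Con (adjusted p = 0.0419) and 0.64 ± 0.28 in IR against Con (adjusted p = 0.201). Per length, Krt18 stood at 25.8, 13.6 and 21.1% of Krt8 in IR+CF-2, 18.8, 17.1 and 11.9% in IR, and 10.1, 9.56 and 7.79% in Con.

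Krt8 averaged 4533 ± 619 CPM in IR+CF-2, 4392 ± 426 CPM in IR and 4859.6 ± 320.3 CPM in Con (SD, n = 3). Krt19 averaged 2949 ± 346, 2807 ± 289 and 2967 ± 225 CPM in the same 3 groups. Neither passed the test in any comparison, and their groups overlapped. Krt20, the keratin of mature surface cells, had 1540, 873 and 1339 CPM in IR+CF-2, 1164, 1495 and 1593 CPM in IR, and 1505, 1600 and 1794 CPM in Con, with the lowest value again in IR+CF-2 2. Krt23 stayed between 4.65 and 9.88 CPM in all 9 libraries. In a sample of whole tissue, fewer cells of a type and less RNA per cell cannot be told apart. Mesothelium also carries simple keratins, and its 7 markers summed to 25.4, 77.5 and 23.8 CPM in IR+CF-2, 17.9, 13.3 and 10.9 CPM in IR, and 17.4, 29.2 and 19.8 CPM in Con. Fibroblast markers, 6 in all, summed to 1926, 3308 and 1610 CPM in IR+CF-2, 1423, 924 and 480.1 CPM in IR, and 1334, 581 and 895 CPM in Con. The 5 markers of surface colonocytes summed to 1116, 4707 and 1379 CPM in IR+CF-2, 1022, 1165 and 1803 CPM in IR, and 2281, 1948 and 1662 CPM in Con. These 5 did not move together in IR+CF-2 against Con, where 3 had fold changes above 0 and 2 below. Only Guca2a was called by edgeR, as lower (log2 fold change -1.70 ± 0.30, adjusted p = 0.0117). The part of these cell types in the levels of simple keratins was not tested.

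**Figure D2:**
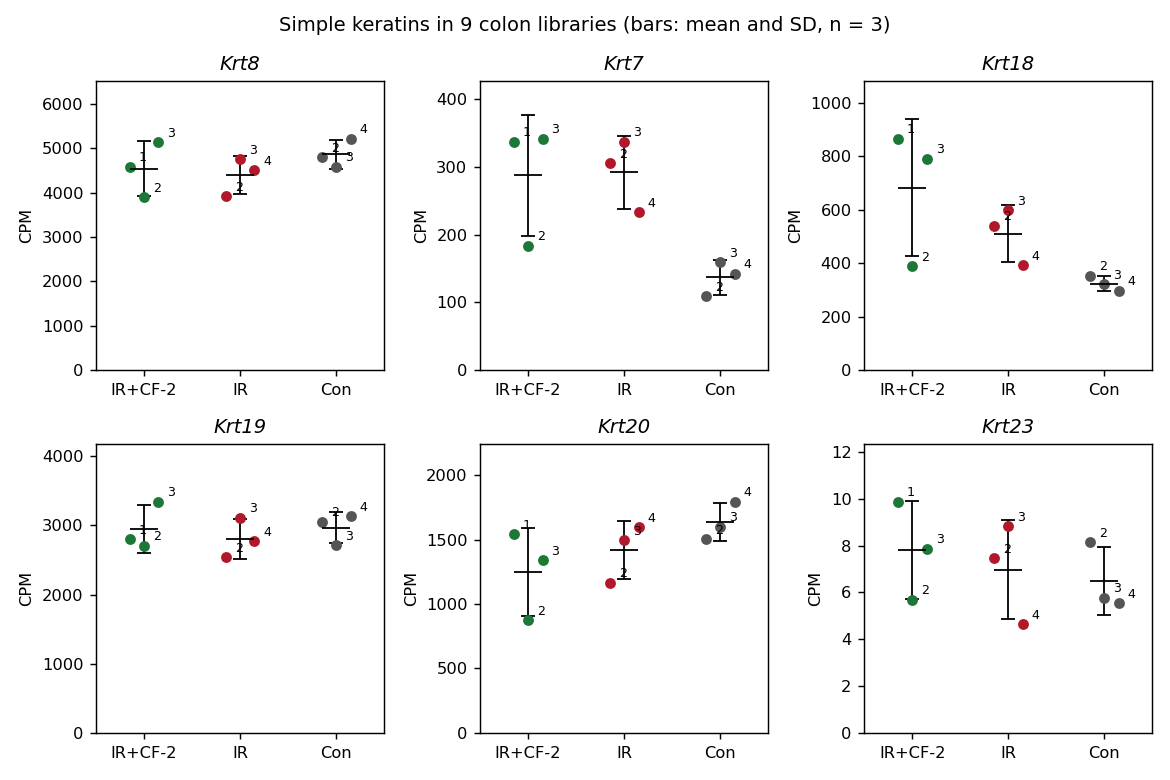
CPM of the 6 simple keratins, each point a library marked with its number, with the mean and SD of each group (n = 3). Krt7 and Krt18 lie above Con in all 6 irradiated libraries, while the groups overlap for Krt8, Krt19, Krt20 and Krt23.

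On chromosome 11, 3 neighbouring type I keratins, Krt36, Krt13 and Krt15, rose in IR+CF-2 against Con, and the gene next to them, Krt19, passed no test. On GRCm38 they lie on the minus strand at chr11:100102007-100105626 (Krt36), chr11:100117327-100121566 (Krt13), chr11:100131758-100135928 (Krt15) and chr11:100140810-100148665 (Krt19). The 200 bases upstream of the annotated RefSeq starts (GRCm38.p6) are shown for Krt36 and for both starts of Krt13, because these 2 genes had the largest fold changes in IR+CF-2 against Con of the keratins with counts in every group. Capitals mark matches to TGANTCA, the core letters bound by AP-1 factors, on either strand. Krt13 holds 1 match upstream of its outer start and 2 upstream of its inner start, and the window of Krt36 holds none.
Krt36, chr11:100105627-100105826, minus strand: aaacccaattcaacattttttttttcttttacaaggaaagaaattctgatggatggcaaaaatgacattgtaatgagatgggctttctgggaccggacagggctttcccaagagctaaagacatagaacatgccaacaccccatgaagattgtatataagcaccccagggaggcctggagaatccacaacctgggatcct
Krt13 inner start, chr11:100120578-100120777, minus strand: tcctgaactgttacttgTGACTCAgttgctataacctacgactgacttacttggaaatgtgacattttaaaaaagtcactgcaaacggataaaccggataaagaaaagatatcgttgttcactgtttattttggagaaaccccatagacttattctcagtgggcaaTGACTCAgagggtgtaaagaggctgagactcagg
Krt13 outer start, chr11:100121567-100121766, minus strand: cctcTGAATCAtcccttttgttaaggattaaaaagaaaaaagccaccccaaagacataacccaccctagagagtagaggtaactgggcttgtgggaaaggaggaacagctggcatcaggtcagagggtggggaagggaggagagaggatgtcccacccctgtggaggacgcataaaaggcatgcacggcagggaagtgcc

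Krt36, a type I keratin of hair and of the tongue, had 12.3, 31.5 and 15.3 CPM in IR+CF-2, 4.76, 7.44 and 1.75 CPM in IR, and 0.0985, 0.0471 and 0.106 CPM in Con. The 3 groups did not overlap, and Con held only 4, 2 and 4 counts. The log2 fold change was 7.73 ± 0.73 in IR+CF-2 against Con (adjusted p = 0.00349) and 5.74 ± 0.70 in IR against Con (adjusted p = 0.0227). In IR+CF-2 against IR it was 2.00 ± 0.51, which missed the threshold (adjusted p = 0.14). Hoxa13 was also highest in IR+CF-2, at 59.5, 78.8 and 59.6 CPM, against 2.82, 1.68 and 0.771 CPM in IR and 44.0, 0.966 and 7.96 CPM in Con.

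Krt13, the type I keratin of the upper layers of moist stratified epithelia such as the oesophagus, had 3.31, 2.09 and 2.93 CPM in IR+CF-2, 0.465, 0.907 and 0.154 CPM in IR, and 0.0492, 0.0943 and 0 CPM in Con. These groups did not overlap either. It rose in IR+CF-2 against Con, with a log2 fold change of 5.62 ± 0.83 (adjusted p = 0.0083). In IR against Con the log2 fold change was 3.26 ± 0.84 (adjusted p = 0.0646) and in IR+CF-2 against IR it was 2.36 ± 0.65 (adjusted p = 0.161).

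Krt15, a keratin of basal cells, had 3.38, 5.14 and 5.46 CPM in IR+CF-2, 6.56, 6.24 and 1.90 CPM in IR, and 0.862, 0.471 and 0.531 CPM in Con. Both irradiated groups lay above Con and overlapped each other, with IR 4 the lowest irradiated library. Krt15 rose in IR against Con, with a log2 fold change of 2.95 ± 0.48 (adjusted p = 0.0301), and in IR+CF-2 against Con, with 2.81 ± 0.47 (adjusted p = 0.0105). For Krt36, Krt13 and Krt15 the Hoxa13 term was the single alternative of 20 that ended the call in IR+CF-2 against Con. Their log2 fold changes were then 6.66, 6.12 and 2.17. Over all genes that term took the calls from 3677 to 6, so the loss was not particular to these 3 genes. Farther along the cluster, Krt14 and Krt17 passed edgeR's test in no comparison and Krt42, at up to 6 counts, was not tested.

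**Figure D3:**
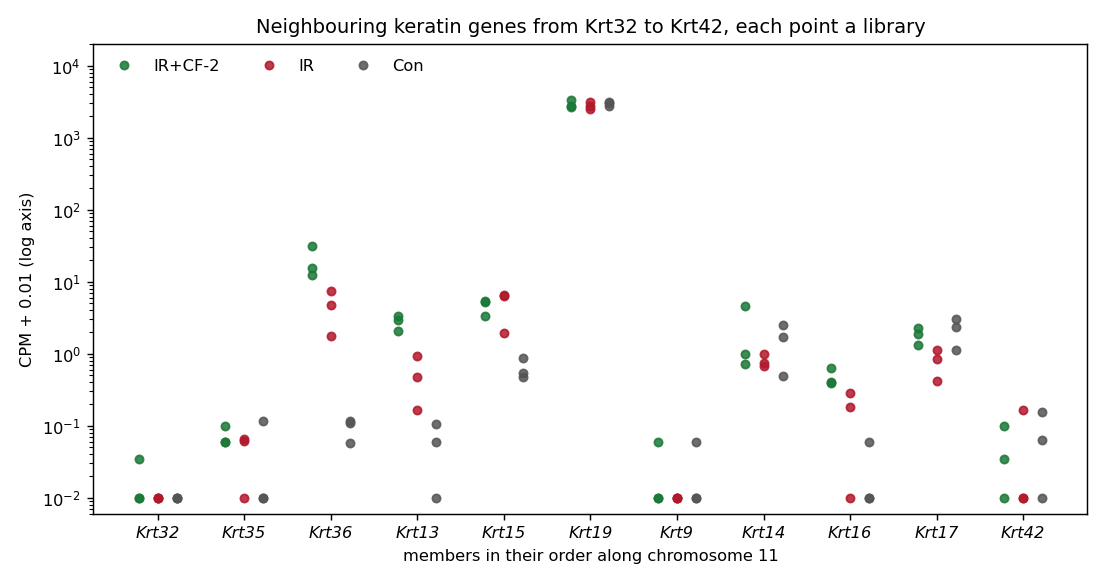
CPM plus 0.01 on a log axis for the 11 keratin genes from Krt32 to Krt42 in their order along chromosome 11, each point a library, with IR+CF-2, IR and Con from left to right at each gene. Krt36, Krt13 and Krt15 separate from Con, whereas the groups overlap for Krt19 at a far higher level and most of the other genes sit near the floor.

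The basal pair of squamous epithelium, Krt5 and Krt14, stood at low levels in all groups. Krt5 had 38, 18 and 42 counts in IR+CF-2, 36, 32 and 2 counts in IR, and 2, 0 and 10 counts in Con. Its log2 fold change was 2.81 ± 1.12 in IR+CF-2 against Con (adjusted p = 0.108) and 2.62 ± 1.12 in IR against Con (adjusted p = 0.198). DESeq2 called Krt5 higher in IR+CF-2 against Con (adjusted p from 0.0194 to 0.684 over all alternatives). Krt14, its usual type I partner, had 0.988, 4.66 and 0.722 CPM in IR+CF-2, 0.726, 0.659 and 0.977 CPM in IR, and 1.67, 2.50 and 0.478 CPM in Con, and the groups overlapped. Krt17, induced in wounded skin, had 1.31, 2.24 and 1.90 CPM in IR+CF-2, 1.13, 0.824 and 0.411 CPM in IR, and 3.03, 1.13 and 2.34 CPM in Con. The IR libraries of Krt17 were the lowest, apart from an overlap of IR 2 with Con 3, and its log2 fold change in IR against Con was -1.46 ± 0.44 (adjusted p = 0.0932). DESeq2 called Krt17 lower in that comparison (adjusted p from 0.0151 to 0.345 over all alternatives). Trp63, the transcription factor that defines stratified epithelia, did not pass the filter, with 4, 24 and 10 counts in IR+CF-2, 8, 0 and 0 counts in IR, and 0, 0 and 2 counts in Con. Its ratio of IR+CF-2 over Con was 18.4, with an exact 95% counting interval of 4.76 to 158. Because most low counts were even, that interval may be too narrow.

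Of 14 suprabasal and stress keratins, 9 were tested and 4 rose in IR+CF-2 against Con: Krt13, Krt4, Krt16 and Krt6a. Krt4, the type II partner of Krt13 on chromosome 15, had 1.04, 6.88 and 3.07 CPM in IR+CF-2, 4.04, 6.18 and 0.411 CPM in IR, and 0.0492, 0.141 and 0.0531 CPM in Con. All 6 irradiated libraries lay above Con, and IR 4 was the lowest of them. Its log2 fold change was 5.31 ± 1.15 in IR+CF-2 against Con (adjusted p = 0.019) and 5.33 ± 1.15 in IR against Con (adjusted p = 0.0463). The call in IR against Con was also lost under RLE and upper quartile scaling and without the filter.

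Krt6a and Krt16, partners that keratinocytes switch on after injury, were counted in few reads. Krt6a had 13, 2 and 21 counts in IR+CF-2, 15, 18 and 2 counts in IR, and none in Con. Against a floor of 3 counts over the Con group this is at least 11.6-fold higher in IR+CF-2 (adjusted p = 0.0481) and at least 12.8-fold higher in IR (adjusted p = 0.082). Krt16 had 16, 25 and 17 counts in IR+CF-2, 6, 10 and 0 counts in IR, and 2, 0 and 0 counts in Con. The ratio of IR+CF-2 over Con was 28.1, with an exact 95% counting interval of 7.44 to 238 (adjusted p = 0.0312 in the fit). Because most low counts were even, that interval may be too narrow and the bounds of Krt6a too high. Krt6a shares 50.1% of its 31-base stretches with other members, 45.9% with Krt6b, whose sums were 48 counts in IR+CF-2, 6 in IR and 3 in Con, so reads may be split between them. Krt16 shares 19.7% of its stretches with Krt14 and 32.2% with genes outside the set, so its reads may be split as well.

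Krt78 had a log2 fold change of 2.06 ± 0.63 in IR+CF-2 against Con that missed the threshold (adjusted p = 0.0512). Krt10, the type I keratin of the upper epidermis, stayed between 1.86 and 2.99 CPM everywhere, while its partner Krt1 never exceeded 0.468 CPM. Krt80 ranged from 2.19 to 3.88 CPM in IR+CF-2, from 0.720 to 2.12 CPM in IR and from 0.684 to 3.25 CPM in Con.

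Krt12, known as a keratin of the cornea, was the single gene called in IR+CF-2 against IR. It had 0.346, 0.605 and 0.564 CPM in IR+CF-2, 1.71, 2.17 and 1.72 CPM in IR, and 0.788, 0.589 and 0.823 CPM in Con. IR+CF-2 lay below IR without overlap and overlapped Con. The log2 fold change was -1.98 ± 0.31 in IR+CF-2 against IR (adjusted p = 0.0485) and 1.35 ± 0.30 in IR against Con (adjusted p = 0.0501). The call against IR held in 7 of 20 alternatives and was lost on leaving out any 1 library but IR+CF-2 2. The antisense gene A830036E02Rik overlaps 1007 exon bases of Krt12, strandedness is not stated, and that gene moved the same way, with 0.692, 0.958 and 0.497 CPM in IR+CF-2, 2.41, 3.57 and 2.29 CPM in IR, and 0.714, 1.25 and 0.956 CPM in Con. Reads of these 2 genes cannot be told apart in their shared bases.

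Krt222, a keratin-like gene in the same cluster, was the single member that fell in IR+CF-2 against Con. It had 0.395, 0.907 and 0.722 CPM in IR+CF-2, 2.03, 2.75 and 2.26 CPM in IR, and 2.46, 3.54 and 1.94 CPM in Con. All IR+CF-2 libraries lay below the other 6, and IR overlapped Con. Its fold change on the log2 scale was -2.08 ± 0.39 in IR+CF-2 against Con (adjusted p = 0.0133) and -1.90 ± 0.39 in IR+CF-2 against IR (adjusted p = 0.0839).

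**Figure D4:**
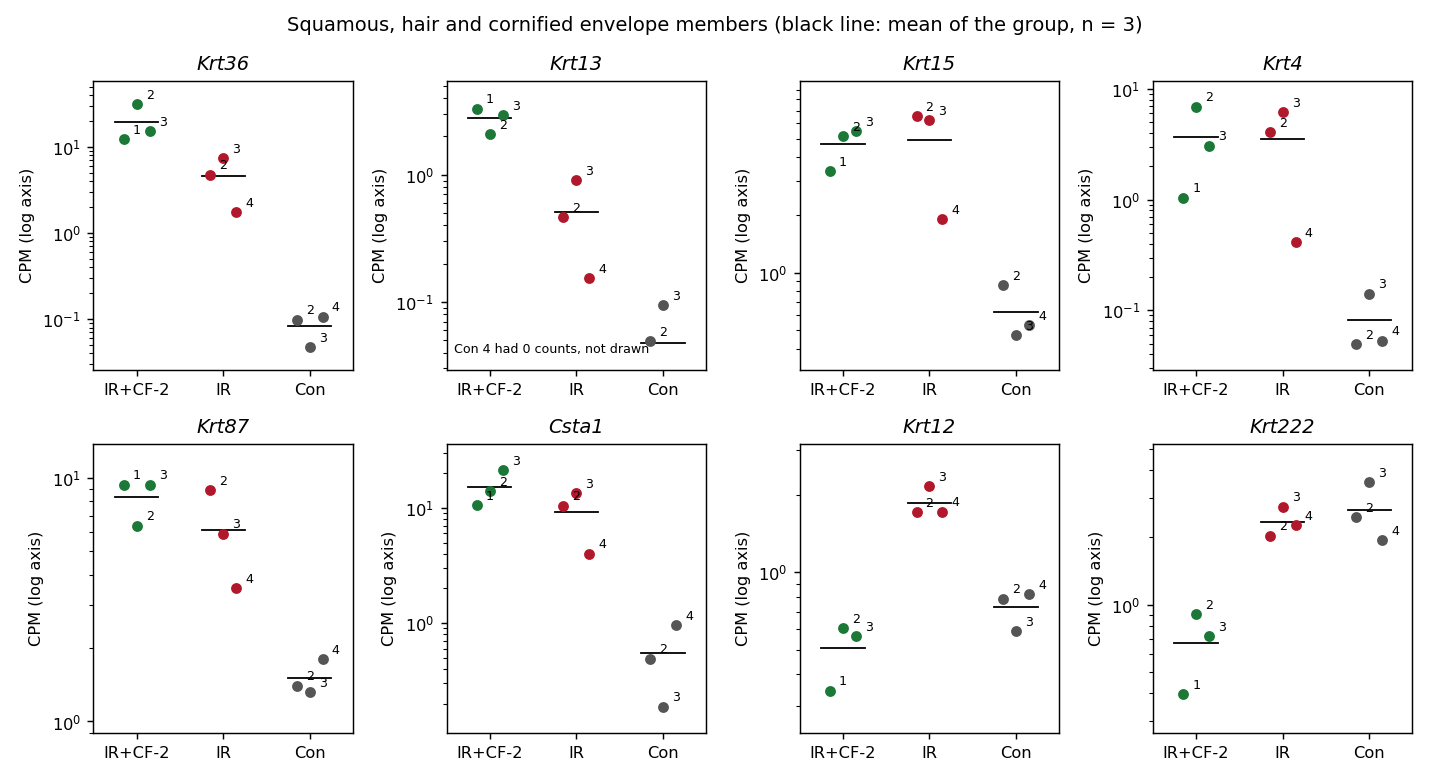
CPM on a log axis for 8 genes, each point a library marked with its number, with a black line at the mean of each group (n = 3); library Con 4 had 0 counts of Krt13 and is not drawn there. Krt36, Krt13, Krt15, Krt4, Krt87 and Csta1 lie above Con in all 6 irradiated libraries, Krt12 is highest in IR and Krt222 is lowest in IR+CF-2.

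Of 22 hair, root sheath and nail keratins, 17 were not tested and 10 never exceeded the floor. The 5 that were tested are Krt36 and the 4 that follow, 3 of which lie near each other on chromosome 15. Krt87, a type II hair keratin, had 9.39, 6.35 and 9.39 CPM in IR+CF-2, 8.92, 5.91 and 3.52 CPM in IR, and 1.40, 1.32 and 1.81 CPM in Con. Both irradiated groups lay above Con and overlapped each other. Krt87 rose in IR+CF-2 against Con (log2 fold change 2.37 ± 0.34, adjusted p = 0.00813) and in IR against Con (1.99 ± 0.33, adjusted p = 0.0304). It shares 25.6% of its 31-base stretches with other members, most with Krt86, which had 0 counts in IR+CF-2, 4 in IR and 2 in Con.

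Krt90 had 4.08, 1.87 and 1.85 CPM in IR+CF-2, 0.436, 0.659 and 0.257 CPM in IR, and 0.295, 0.519 and 0.372 CPM in Con. Only the IR+CF-2 libraries stood apart from Con in this gene, with a log2 fold change of 2.59 ± 0.48 (adjusted p = 0.0134). Against IR the log2 fold change was 2.43 ± 0.48 (adjusted p = 0.0817). Krt84, a type II keratin of nail and tongue, was the most abundant of the class in Con, and its 6.60, 14.8 and 9.32 CPM in IR+CF-2 overlapped the 3.15, 7.19 and 2.52 CPM in Con. IR had 9.73, 14.7 and 7.66 CPM of Krt84, each above every Con library, with a log2 fold change of 1.28 ± 0.47 (adjusted p = 0.146). Krt27, an inner root sheath keratin, was highest in IR 3 and had 4, 0 and 8 counts in IR+CF-2, 39, 182 and 10 counts in IR, and 2, 16 and 4 counts in Con.

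The small proline-rich genes split into an abundant Sprr2a trio and several genes close to the floor. Sprr2a3 had 592, 562 and 449.8 CPM in IR+CF-2, 642, 937 and 353 CPM in IR, and 295, 149 and 294 CPM in Con. Each irradiated library exceeded each Con library, with log2 fold changes of 1.39 ± 0.34 in IR against Con (adjusted p = 0.0608) and 1.03 ± 0.34 in IR+CF-2 against Con (adjusted p = 0.0638), neither past the threshold. Sprr2a1 and Sprr2a2 overlapped between IR+CF-2 and Con. In IR, Sprr2a1 lay above Con without overlap, with a log2 fold change of 0.76 ± 0.26 (adjusted p = 0.128). Its log2 fold change in IR+CF-2 against IR was -0.64 ± 0.26 (adjusted p = 0.306), with overlap. The trio shares 73.4 to 97.8% of its 31-base stretches, so how reads were assigned among the 3 is uncertain. Summed over all 12 members of the family, most of it from this trio, the level was 831 ± 141 CPM in IR+CF-2, 1044 ± 439 CPM in IR and 489 ± 90.2 CPM in Con (SD, n = 3).

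Sprr1a, a cross-bridging envelope precursor, had 35.9, 6.30 and 21.3 CPM in IR+CF-2, 11.4, 18.5 and 19.3 CPM in IR, and 9.70, 6.25 and 3.96 CPM in Con. IR lay above Con while IR+CF-2 2 fell within it, and neither log2 fold change passed, 1.32 ± 0.57 in IR against Con (adjusted p = 0.201) and 1.58 ± 0.57 in IR+CF-2 against Con (adjusted p = 0.0846). Sprr2h had 12.4, 0.555 and 4.60 CPM in IR+CF-2, 0.116, 0.330 and 0.154 CPM in IR, and 0.591, 0.0943 and 0.212 CPM in Con. It rose in IR+CF-2 against Con (log2 fold change 4.20 ± 1.06, adjusted p = 0.0288) although IR+CF-2 2 lay within the range of Con, and against IR the log2 fold change was 4.75 ± 1.11 (adjusted p = 0.11). Sprr2b, with at most 33 counts in a library, rose too (2.53 ± 0.59, adjusted p = 0.0225). It shares 31.9% of its 31-base stretches with other members, 28.7% with the far more abundant Sprr2a1, so some of its reads may belong there. The other 6 members were untested, and among them Sprr2d summed to 10 counts in IR+CF-2, 9 in IR and 0 in Con, and Sprr2i to 13, 2 and 0 counts in the same groups.

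Among the 7 envelope and cornification genes, Csta1, Lor and Casp14 were higher in IR+CF-2 than in Con, and the skin proteins Ivl, Flg and Krtdap stayed at or near 0. Csta1, an inhibitor of cysteine proteases, had 10.6, 14.0 and 21.3 CPM in IR+CF-2, 10.4, 13.4 and 4.01 CPM in IR, and 0.492, 0.189 and 0.956 CPM in Con. All 6 irradiated libraries stood above Con. Csta1 had a log2 fold change of 4.72 ± 0.63 in IR+CF-2 against Con (adjusted p = 0.00765) and 4.08 ± 0.61 in IR against Con (adjusted p = 0.0271). Csta1 is the gene of the set that limma-voom also called in IR against Con.

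Lor, the main protein of the epidermal envelope, had 1.26, 7.21 and 0.835 CPM in IR+CF-2, 0.407, 0.852 and 0.386 CPM in IR, and 0.246, 0.0943 and 0.159 CPM in Con. IR+CF-2 and IR both lay above Con, and IR+CF-2 2 alone held 286 counts, against 51 in IR+CF-2 1 and 37 in IR+CF-2 3. For Lor the log2 fold change was 4.10 ± 0.90 in IR+CF-2 against Con (adjusted p = 0.0194) and 2.39 ± 0.80 in IR+CF-2 against IR (adjusted p = 0.228). Casp14, a caspase of cornifying skin, had 10, 980 and 15 counts in IR+CF-2, 8, 12 and 2 counts in IR, and 0 in all Con libraries. Its sum of 1005 counts in IR+CF-2 is at least 325-fold above the floor of 3 counts over Con (adjusted p = 0.0469), and nearly all of it came from IR+CF-2 2, the library with the high Tgm3, Hoxd13 and Hoxb13. The 12 squamous markers, 11 of them over the floor in a library, summed to 199.5, 2267 and 209 CPM in IR+CF-2. Their sums were 137, 152 and 121 CPM in IR, and 129, 113 and 124 CPM in Con. Tgm3 is 1 of the 12 and alone held 2124 of the 2267 CPM in IR+CF-2 2, so that sum does not describe the list as a set. The part of these markers in this result was not tested. Sbsn, a secreted protein of suprabasal cells, had 0.988, 5.42 and 1.33 CPM in IR+CF-2, 1.89, 0.852 and 2.26 CPM in IR, and 3.79, 2.66 and 3.58 CPM in Con. IR lay below Con, but Sbsn passed edgeR's test in no comparison.

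The upstream sequences of Csta1 and of 3 genes of the envelope cluster on chromosome 3 that rose in IR+CF-2 against Con, Lor, Sprr2b and Sprr2h, are given for the 200 bases before each RefSeq start (GRCm38.p6). Capitals mark TGANTCA and, nearer the start, TATAAA, the letters of a TATA box, a motif added after these data had been seen. In Lor the matches lie at -48 and -27 from the start. In both Sprr2 genes TATAAA lies at -29, and TGAGTCA lies at -195 in Sprr2b and -198 in Sprr2h. Csta1 holds neither motif in this window.
Lor, chr3:92083143-92083342, minus strand: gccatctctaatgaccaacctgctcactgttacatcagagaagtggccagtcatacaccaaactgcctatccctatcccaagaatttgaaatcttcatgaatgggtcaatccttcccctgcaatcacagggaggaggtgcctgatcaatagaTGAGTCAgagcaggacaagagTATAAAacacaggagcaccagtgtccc
Sprr2b, chr3:92316505-92316704, plus strand: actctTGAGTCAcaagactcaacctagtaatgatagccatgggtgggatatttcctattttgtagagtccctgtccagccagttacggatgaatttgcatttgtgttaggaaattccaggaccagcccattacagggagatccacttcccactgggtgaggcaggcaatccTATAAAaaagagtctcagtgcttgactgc
Sprr2h, chr3:92385485-92385684, plus strand: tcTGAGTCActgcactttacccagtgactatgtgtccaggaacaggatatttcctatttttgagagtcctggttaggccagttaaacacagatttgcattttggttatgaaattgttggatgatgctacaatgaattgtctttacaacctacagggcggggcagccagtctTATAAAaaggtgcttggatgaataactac
Csta1, chr16:36131190-36131389, minus strand: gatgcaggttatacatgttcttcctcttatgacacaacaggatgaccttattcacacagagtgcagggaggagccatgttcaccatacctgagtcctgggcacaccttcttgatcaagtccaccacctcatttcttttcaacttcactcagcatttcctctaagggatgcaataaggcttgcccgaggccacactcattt

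RefSeq promoter windows of 250 bases before to 50 after the start were matched for 49 of the 76 genes, 50 windows in all. TGANTCA, on either strand, occurred in 15 of these 50 windows (30%), against 7.81% of all 32851 windows, and 8 of the 14 genes that hold it are Sprr genes. TATAAA occurred in 27 of 50 (54%), against 13.6% of all windows. AACNGGTT, the letters bound by grainyhead-like factors, occurred in 0 of 50, against 2.09% of all. The Sprr2 genes are copies of each other, so their windows are not independent, and a match of letters describes the sequence alone.

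The desmosomal cadherins of simple epithelium were abundant in all libraries. Dsg2 had 483, 541 and 447 CPM in IR+CF-2, 632, 689 and 624 CPM in IR, and 523, 594 and 596 CPM in Con. IR+CF-2 lay below IR without overlap and overlapped Con, with a log2 fold change against IR of -0.50 ± 0.14 that missed the threshold (adjusted p = 0.158). Dsc2 had 323, 158 and 334 CPM in IR+CF-2, 385, 403 and 342 CPM in IR, and 379, 373 and 409 CPM in Con. The lowest value belonged to IR+CF-2 2, and the log2 fold change in IR+CF-2 against Con was -0.61 ± 0.25 (adjusted p = 0.118). Per length, Dsc2 was 105, 45.8 and 117% of Dsg2 in IR+CF-2, 95.4, 91.6 and 85.9% in IR, and 114, 98.4 and 107% in Con.

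Dsg3, the cadherin of stratified epithelium, had 128, 9 and 124 counts in IR+CF-2, 209, 287 and 115 counts in IR, and 65, 58 and 112 counts in Con, and edgeR called it in no comparison. Its low value in IR+CF-2 2 stands beside the high Casp14 and Lor of the same library. Dsc3 reached at most 0.639 CPM, Dsc1 0.135 CPM and Dsg1a 0.0494 CPM. The pseudogene Krt8-ps, at 24.7 to 36.4 CPM, shares 67.9% of its stretches with Krt8 and may hold its reads.

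The other genes of the pathway were followed through 3 lists, to be read beside the 11.2% of all genes called higher and 7.95% called lower in IR+CF-2 against Con and the 2.37% called higher in IR against Con. At an unadjusted p under 0.05, 15.7% of all genes were higher and 8.2% lower in IR against Con, and 6.48% and 8.08% in IR+CF-2 against IR. DESeq2, run without the filter, gave calls equal to 6.85% of the 19174 genes higher and 4.15% lower in IR against Con. In IR+CF-2 against IR its calls equalled 2.36% and 2.56% of them. For limma-voom the shares were 0.6% and 0.37%, and 0.0678% and 0.256%. Of 11 desmosomal plaque proteins and plakins, 10 were matched and tested; 0 passed in IR against Con and in IR+CF-2 against IR, and 2 rose in IR+CF-2 against Con. At an unadjusted p under 0.05, 2 and 0 of them were higher and 0 and 1 lower in the first pair of comparisons. There, DESeq2 called 1 higher in IR against Con and 0 in IR+CF-2 against IR, and limma-voom 0 and 0. The 2 that rose were Ppl, a plakin of the envelope, with 38.9, 30.8 and 52.5 CPM in IR+CF-2, 50.04, 50.2 and 24.4 CPM in IR, and 14.8, 20.01 and 14.2 CPM in Con (log2 fold change 1.20 ± 0.30, adjusted p = 0.0275), and Pkp1, a plakophilin of the plaque (0.61 ± 0.15, adjusted p = 0.0269). Ppl was as high in IR, with an adjusted p of 0.0509 in IR against Con. The median log2 fold change of the list in IR+CF-2 against Con was 0.12, against 0.02 over all genes.

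Of 32 cornification partners, 23 were matched in the table and 13 tested. Among these, 4 rose and 1 fell in IR+CF-2 against Con, with a median of 1.28. Those that rose were Crnn, Tgm1, Scel and Tgm5, all at or below 5.47 CPM. Tgm1, the transglutaminase that anchors the envelope, had 4.13, 1.08 and 1.06 CPM in IR+CF-2, 0.871, 0.742 and 0.257 CPM in IR, and 0.492, 0.259 and 0.319 CPM in Con (log2 fold change 2.45 ± 0.66, adjusted p = 0.0338 in IR+CF-2 against Con). Abca12, the lipid transporter of the skin barrier, fell to 8.25, 0 and 13.6 CPM in IR+CF-2, against 78.7, 120.2 and 105 CPM in Con (-3.90 ± 1.09, adjusted p = 0.0379), and it had 119.9, 131 and 116 CPM in IR. These calls were lost in 11 of 20 alternatives for Abca12, 13 for Tgm5, 9 for Tgm1 and 8 for Scel, and in 6 of 19 for Crnn, each time including the omission of any 1 Con library. In IR against Con and in IR+CF-2 against IR 0 of the 13 passed, with 1 and 3 higher and 0 and 2 lower at an unadjusted p under 0.05. DESeq2 called 0 in IR against Con and 1 lower in IR+CF-2 against IR, and limma-voom 0 and 0. In IR+CF-2 against Con, DESeq2, run without the filter, called 7 of the 23 higher and 2 lower, and limma-voom called 2 and 2 of the 13. Over all genes in that comparison, in either direction, DESeq2 called 4993 of the 33539 in the table. There limma-voom called 3631 of the 19174 tested.

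Of 16 regulators of squamous and surface differentiation, all tested, 1 rose in IR against Con, 0 passed in IR+CF-2 against IR and 4 rose in IR+CF-2 against Con. Grhl3, a grainyhead-like factor of barrier genes, had 7.83, 6.53 and 5.62 CPM in IR+CF-2, 8.48, 9.12 and 1.93 CPM in IR, and 0.394, 0.330 and 0.212 CPM in Con. Irradiated libraries stood clear of Con, with log2 fold changes of 4.33 ± 0.57 in IR against Con (adjusted p = 0.0233) and 4.30 ± 0.57 in IR+CF-2 against Con (adjusted p = 0.00765). The AP-1 genes Fosl1 and Junb rose in IR+CF-2 against Con by 3.28 ± 0.81 and 0.85 ± 0.15 on the log2 scale (adjusted p = 0.0275 and 0.0119). Fosl1 had 5.36, 1.11 and 2.98 CPM in IR+CF-2, 2.61, 3.49 and 0.925 CPM in IR, and 0.0985, 0.566 and 0.212 CPM in Con, and its log2 fold change in IR against Con was 2.93 (adjusted p = 0.0749). Between IR+CF-2 and IR, 2 regulators were higher and 1 lower at an unadjusted p under 0.05, DESeq2 called 2 higher and 0 lower, and limma-voom 0. The list's median log2 fold change was 0.03 in IR against Con, -0.18 in IR+CF-2 against IR and -0.13 in IR+CF-2 against Con. The call of Grhl3 in IR against Con was lost under limma-voom, with the Hoxa13 term, and on leaving out IR 2, IR 3 or any 1 Con library.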

How the data were processed

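Colon RNA of 9 mice, 3 a group, was measured as poly(A) RNA sequenced from both ends. The deposited table holds raw counts per gene and FPKM values that the authors computed, per the file headers. HISAT2, featureCounts, DESeq2 and GRCm38 (mm10) are named in the submitters' processing notes; their versions, and whether strand was used, are not stated, so antisense overlaps cannot be told apart. Library totals were 34.4 to 44.3 M, and between 71.6 and 74.6% of counts from 1 to 20 were even numbers.

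Counts were tested with edgeR 4.0.16 in R 4.3.3, after filterByExpr and TMM scaling. The robust quasi-likelihood F-test was two-sided with group as the only term. Adjustment was Benjamini-Hochberg over 19174 genes, with a threshold of 0.05. On simulated counts the fit called 29, 23 and 21% of 2-fold changes in IR against Con, IR+CF-2 against IR and IR+CF-2 against Con. For 4-fold changes it called 80, 74 and 72%, so a gene not called may still have changed. Alternatives used limma 3.58.1 (voom), DESeq2 1.42.0, other scalings and filters, a replicate block, a Hoxa13 term and left-out libraries; those for pathway genes, and the TATAAA motif, were chosen after seeing the data. The members and lists were chosen with earlier results of these data known. Genes named are the simple keratins, members reaching 1 CPM in a library or an adjusted p under 0.05, and further members chosen after their values were seen. Coordinates are from the GENCODE M21 annotation, which holds all 76 members. The labels call the replicates biological. FPKM served only for levels between genes. The values of 1 regulator gene are not reported here.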

Additional observations from a re-analysis of the deposited data

How the results depend on the processing

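The counts of calls depended strongly on the settings, and the causes were not tested. In IR against Con, 5 members and 616 genes passed with edgeR. Members numbered 12 with DESeq2, 1 with limma-voom, 1 with the Hoxa13 term, 18 without Con 3, IR 4 and IR+CF-2 2 together, and 0 at an adjusted p under 0.01. All genes numbered 277 under RLE scaling, 302 under upper quartile scaling, 339 without a filter, 2110 with DESeq2, 186 with limma-voom, 2307 with the compared groups alone, 45 with the Hoxa13 term, 4811 without those 3 libraries and 1 at 0.01. Leaving out 1 library gave 0 to 14 members and 1 to 3085 genes.

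Between IR+CF-2 and IR, 1 member and 58 genes passed. Members numbered 0 under RLE scaling, upper quartile scaling, the compared groups alone, the Hoxa13 term and 0.01, 9 with DESeq2 and 5 without the 3 libraries. All genes numbered 121 without a filter, 943 with DESeq2, 6 with the compared groups alone, 0 with the Hoxa13 term, 883 without the 3 libraries and 5 at 0.01. Leaving out 1 library gave 0 to 4 members and 5 to 597 genes.

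Between IR+CF-2 and Con, 16 members and 3677 genes passed. Members numbered 10 under the stricter filter, 0 with the Hoxa13 term and 4 at 0.01. All genes numbered 6 with the Hoxa13 term, 7621 without the 3 libraries and 342 at 0.01. Leaving out 1 library gave 6 to 21 members and 685 to 6721 genes.

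With the replicate number as a block, 7 members and 944 genes passed in IR against Con, 0 and 6 in IR+CF-2 against IR, and 5 and 462 in IR+CF-2 against Con. Same-numbered libraries correlated at 0.053 to 0.347 over 7 pairs, against -0.27 to 0.346 over 20 other pairs, and 3 of 8 libraries correlated best with their own number, so the numbers were not taken to pair the samples.

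Of the log2 fold changes named, 8 values changed sign. Of 52 other pairs of a gene and a comparison, whose fold changes are not given, 32 changed sign in some alternative. Krt23 gave -0.147 without IR 3 and -0.0102 without Con 4 in IR against Con, its range over single libraries left out being -0.147 to 0.292, and -0.22 with the block, -0.0539 with the Hoxa13 term and -0.0354 without IR+CF-2 1 in IR+CF-2 against Con, with a range of -0.035 to 0.36. Krt19 gave 0.024 in IR against Con without IR 2, with a range of -0.199 to 0.024. With the Hoxa13 term, Casp14 gave -15.44 and Krt17 -0.39 in IR+CF-2 against IR. Members at or under the floor of 3 counts cannot be compared at this depth.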
